A study of Mus musculus with 7 samples.

Results

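Dusp4, Dusp6, Spry1, Spry2, Spry4, Spred1, Etv4 and Etv5 are genes that fibroblast growth factor (FGF) signalling switches on through the kinase ERK, and most of their products then restrain that signal. All 8 were found by name in a table of 25965 genes, and all 8 passed the filter on low values that kept 13997 genes. RNA had been sequenced from tissue cut behind the last visible somite of female FVB/N mouse embryos at day 9.5 of gestation (E9.5). The labels name this piece postsomitic mesoderm, and the series title names it presomitic mesoderm. The 3 wild-type libraries (Smchd1 +/+) were compared with 4 libraries homozygous for the MommeD1 allele of Smchd1 (Smchd1 MommeD1/MommeD1), a null allele per the labels, although the design text counts 3 null samples. No treatment is given for either group. The allele is carried by the whole embryo, and the labels do not say whether a library is 1 embryo or a pool, so a p-value here weighs a difference against the spread between libraries, which may be technical. Libraries are lettered within each group, since their headers carry no sample number of the titles.

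In the tail end of the embryo, FGF ligands made in the tailbud activate FGF receptors, the RAS and RAF proteins and then ERK, and this signal keeps the presomitic mesoderm immature until cells leave its range. ERK relieves repression by Capicua (the Cic gene) and activates ETS transcription factors, which brings on a set of targets. Dusp6 and Dusp4 encode phosphatases that remove the activating phosphates from ERK and related kinases, with Dusp6 in the cytoplasm and Dusp4 in the nucleus. Sprouty proteins (Spry1, Spry2, Spry4) and the related Spred1 act at the membrane, upstream of RAF. Etv4 and Etv5 encode ETS factors of the PEA3 group, which carry the signal on to other genes. The level of these transcripts is widely used as a readout of ERK activity.

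The Dusp6 and Spry2 promoters are shown because they carry the octamer bound by Capicua. The octamer was searched as TGAATGAA, TGAATGGA, TCAATGAA and TCAATGGA on both strands, in the RefSeq windows of GRCm38.p6 that span 250 bases before a gene's start and 50 after it. The 8 members matched 6 windows of 5 genes. The Dusp6 window held 2 octamers and the Spry2 window held 1, in capitals below, and all of them lie on the opposite strand. The windows are chr10:99262981-99263280 on the plus strand and chr14:105896770-105897069 on the minus strand, both written 5′ to 3′.
Dusp6: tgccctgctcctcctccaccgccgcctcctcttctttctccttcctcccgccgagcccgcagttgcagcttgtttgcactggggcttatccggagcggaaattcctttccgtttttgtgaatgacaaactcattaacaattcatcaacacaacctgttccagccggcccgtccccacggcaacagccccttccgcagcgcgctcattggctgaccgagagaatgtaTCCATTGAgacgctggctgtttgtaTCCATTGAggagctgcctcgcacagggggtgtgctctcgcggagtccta
Spry2: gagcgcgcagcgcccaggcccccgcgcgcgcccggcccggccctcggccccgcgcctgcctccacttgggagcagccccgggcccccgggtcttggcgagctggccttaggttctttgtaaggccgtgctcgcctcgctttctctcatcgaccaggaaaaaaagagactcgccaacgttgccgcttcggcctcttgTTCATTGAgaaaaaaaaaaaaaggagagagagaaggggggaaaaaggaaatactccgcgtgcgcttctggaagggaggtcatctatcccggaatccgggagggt

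Among 32851 windows of this length, 3.84% held at least 1 octamer and 0.183% held 2 or more. The Dusp6 octamers read TCAATGGA and the Spry2 octamer TCAATGAA, at bases 227 to 234, 252 to 259 and 197 to 204 of their windows. The windows of Spry1, Spred1 and Etv5 held none of these letters. The ETS core CCGGAA, also searched on both strands, cannot overlap the octamer. It was in 1 of the 5 members, Spry2, against 14.9% of all windows. A match describes letters only, and binding was not measured here.

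The libraries held 19622596 to 23847381 reads in listed genes, which were 28.8% to 37.9% of the denominator of the deposited values. The deposited log2 values therefore carried a shift, with a median null minus wild-type difference of 0.16 over all genes tested. The values given below are log2 RPM, reads scaled to a common library total, after each library's autosomal median was aligned to the mean of the 7 medians. With this alignment the median difference of all genes was -0.03. Smchd1 fell by 1.67 on this scale (limma adjusted p = 9.54e-05), with 1922 to 2372 reads in null and 5572 to 6552 in wild-type libraries. The presomitic genes Tbx6 (2211 to 3199 reads) and Msgn1 (375 to 1007 reads) and the tailbud gene T (2059 to 6692 reads) were read in every library. Wild-type library B stood apart, with 200 reads of Cyp26a1, a retinoic acid-degrading enzyme of the tailbud, against 2033 to 3100 in the other 6 libraries. The difference of each target is therefore also given without it. In such bulk tissue, fewer cells of a type and less RNA per cell cannot be told apart.

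None of the 8 targets passed the test between null and wild-type tissue. Over all genes tested, 7 rose and 1 fell at an adjusted p under 0.05, which was 0.0572% of them. At an unadjusted p under 0.05 limma gave 1 of the 8, Etv4, against 14.0% of all genes. At the same limit voom on recovered reads gave 2, but the share of all genes under voom was not counted, so that count has no background here. In 0 of the 8 did all null libraries lie on one side of all wild-type libraries, which was the case for 12.7% of all genes. The differences were above 0 for 4 targets and below 0 for 4, with a median of 0.03, while 42.5% of all genes lay above 0. On the deposited scale 7 were above 0, with a median of 0.22, which lies close to the shift of all genes there.

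**Figure D1:**
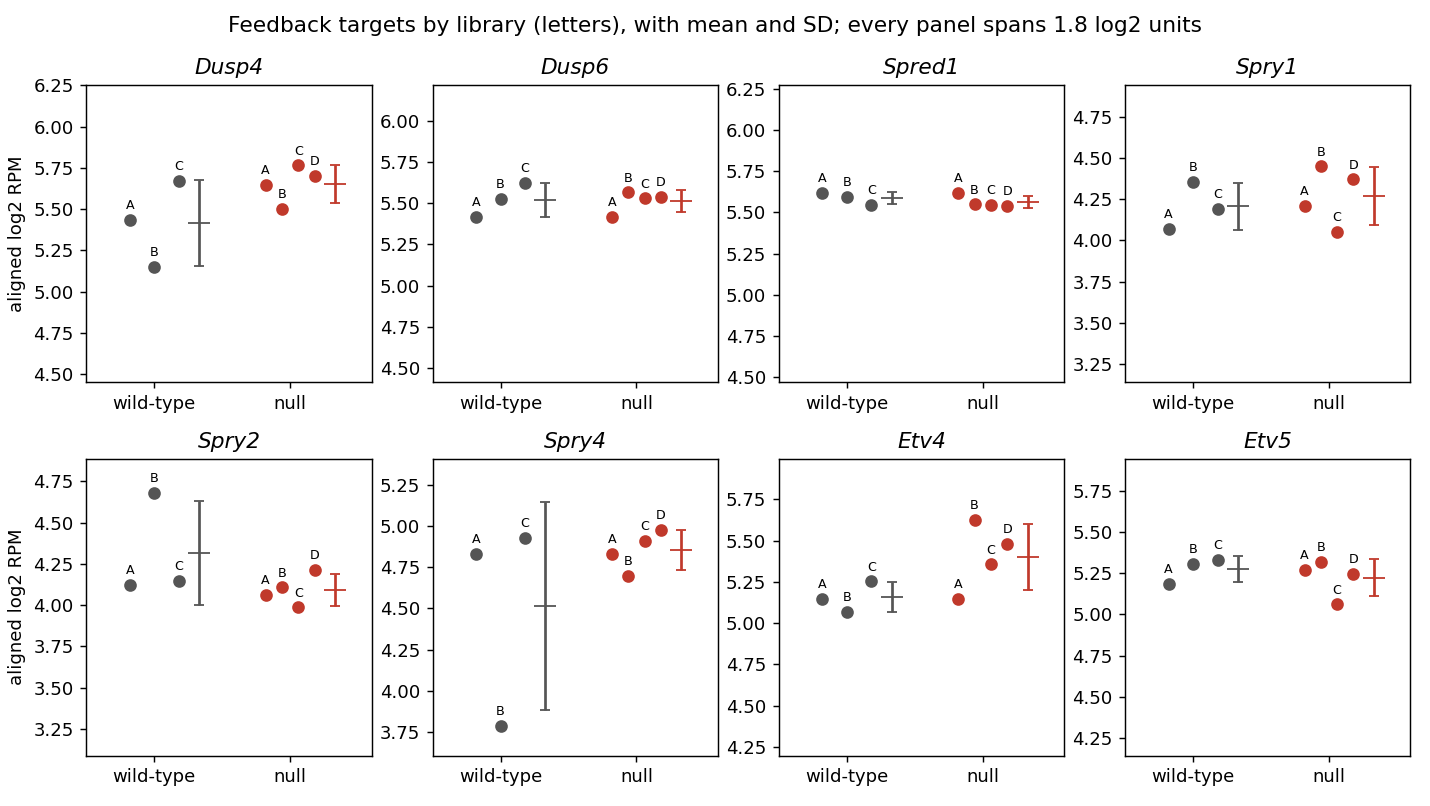
Aligned log2 RPM (vertical axis, the same span in each panel) of the 8 targets in each wild-type (grey) and null (red) library, lettered, with the group mean and SD at the right of each group. Wild-type B lies at 3.79 for Spry4 and at 4.68 for Spry2, apart from the other 6 libraries, and Spred1 stays between 5.54 and 5.62.

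Of the phosphatases, Dusp6 (chr10:99263231-99267488, plus strand, positions as in the deposited table) was almost level between the groups. Its aligned log2 RPM was 5.42, 5.57, 5.53 and 5.54 in null libraries A to D, and 5.42, 5.53 and 5.62 in wild-type libraries A to C. The groups overlapped, with wild-type C highest of all and the lowest value of each group in its library A. The null mean was 5.51 ± 0.06 (SD, n = 4) and the wild-type mean was 5.52 ± 0.10 (SD, n = 3). The difference was -0.01 (SE 0.06, limma adjusted p = 0.946), with a 95% interval from -0.15 to 0.13. Its direction turned with other scalings, reaching 0.18 on the deposited scale, and was -0.01 without wild-type B (adjusted p = 0.988).

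Dusp4 (chr8:34807297-34819894, plus strand) varied more. Its aligned log2 RPM was 5.65, 5.50, 5.77 and 5.70 in null libraries A to D, and 5.43, 5.15 and 5.67 in wild-type libraries A to C. Wild-type B was lowest and wild-type C lay within the null range. Null tissue averaged 5.65 ± 0.11 (SD, n = 4), against 5.42 ± 0.26 (SD, n = 3) for the wild type, a difference of 0.24 (SE 0.12, 95% interval -0.03 to 0.50, limma adjusted p = 0.365). Without wild-type B it was 0.10 (adjusted p = 0.756).

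The membrane inhibitor Spred1 (chr2:117121374-117182279, plus strand) had the smallest spread of the 8. Its aligned log2 RPM was 5.62, 5.55, 5.54 and 5.54 in null libraries A to D and 5.62, 5.59 and 5.55 in wild-type libraries A to C. The pooled SD within groups was 0.04, which placed it at percentile 1.61 of all genes kept, a ranking that was not matched for level. Counting error alone gives an SD of 0.02 to 0.03 at its 2634 to 3361 reads. The difference was -0.02 (SE 0.04, 95% interval -0.12 to 0.08, limma adjusted p = 0.797), and its direction also turned with other scalings (0.17 as deposited). Without wild-type B it was -0.02 (adjusted p = 0.917).

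Spry4 (chr18:38586268-38601268, minus strand) and Spry2 (chr14:105891949-105896819, minus strand) diverged in a single library. Spry4 had 4.83, 4.70, 4.91 and 4.98 aligned log2 RPM in null libraries A to D, and 4.83, 3.79 and 4.93 in wild-type libraries A to C. Wild-type B had 790 reads of Spry4 against 1714 to 2225 in the others, and was 2.13-fold below the mean log2 value of wild-type A and C. Spry2 had 4.06, 4.11, 3.99 and 4.21 in null libraries A to D, and 4.12, 4.68 and 4.15 in wild-type libraries A to C. Here wild-type B was the highest library, 1.46-fold above wild-type A and C. Among all genes kept, 4.21% lay further below wild-type A and C than Spry4 in this library, and 2.34% lay further above than Spry2.

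The genotype differences of both genes were close to 0 without that library. For Spry4 the difference was 0.34 (SE 0.25, 95% interval -0.23 to 0.90, limma adjusted p = 0.479), and -0.02 without wild-type B (adjusted p = 0.938). For Spry2 it was -0.22 (SE 0.14, 95% interval -0.53 to 0.09, limma adjusted p = 0.415), and -0.04 without that library (adjusted p = 0.881). The Spry2 minus Spry4 value within a library does not depend on its scaling. It was between -0.92 and -0.59 in the 4 null libraries, -0.71 and -0.78 in wild-type A and C, and 0.89 in wild-type B. Its sign was positive in wild-type B alone among the 7 libraries. These log2 values are not per length.

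Spry1 (chr3:37639947-37644598, plus strand) spread in both groups. Its aligned log2 RPM was 4.21, 4.45, 4.05 and 4.37 in null libraries A to D and 4.07, 4.35 and 4.19 in wild-type libraries A to C. The groups overlapped over most of their range. The difference was 0.06 (SE 0.11, 95% interval -0.18 to 0.31, limma adjusted p = 0.765), and 0.14 without wild-type B (adjusted p = 0.745).

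Etv4 (chr11:101769742-101785371, minus strand) was the target with the smallest p. Its aligned log2 RPM was 5.15, 5.62, 5.36 and 5.48 in null libraries A to D, and 5.15, 5.07 and 5.25 in wild-type libraries A to C. Null B, C and D lay above all wild-type libraries, while null A was level with wild-type A. Null tissue averaged 5.40 ± 0.20 (SD, n = 4), against 5.16 ± 0.09 (SD, n = 3) for the wild type. The difference of 0.24, or 1.18-fold, had a 95% interval from 0.00 to 0.49 (SE 0.11, unadjusted p = 0.0475, limma adjusted p = 0.352). It stayed at 0.20 without wild-type B (adjusted p = 0.71), and lay between 0.17 and 0.44 over 20 alternatives, with adjusted p-values from 0.208 to 0.71.

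Its paralogue Etv5 (chr16:22381309-22439719, minus strand) had a difference near 0. Etv5 had 5.27, 5.32, 5.06 and 5.24 aligned log2 RPM in null libraries A to D, and 5.18, 5.31 and 5.33 in wild-type libraries A to C. The groups overlapped, and the lowest value was in null C. The difference was -0.05 (SE 0.07, 95% interval -0.21 to 0.11, limma adjusted p = 0.713), and its direction turned on the deposited scale (0.14). Without wild-type B it was -0.03 (adjusted p = 0.913).

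**Figure D2:**
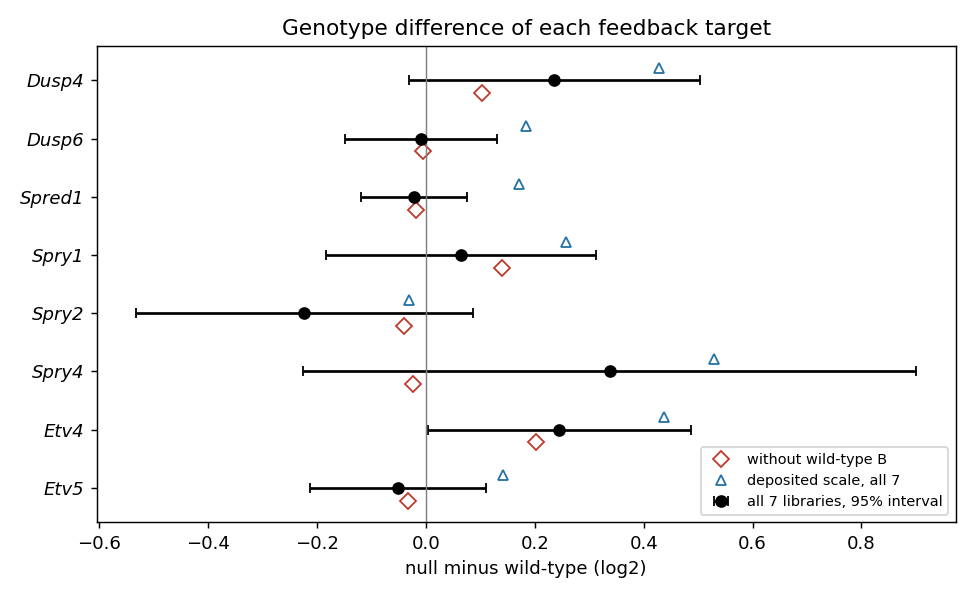
Null minus wild-type difference (horizontal axis, log2) of each target with all 7 libraries and its 95% interval (black), without wild-type B (red diamonds), and on the deposited scale (blue triangles). Intervals include 0 except for Etv4, whose lower end is at 0.00, and the Spry4 value moves from 0.34 to -0.02 without wild-type B.

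Differences between relatives within a library were compared as well, because they do not change with library scaling. The 5 comparisons were chosen after the values were seen and tested by two-sided exact permutation over 35 splits, with a smallest possible p = 0.0286. Their p-values, also when adjusted, do not account for that choice and are a description only. Etv4 minus Etv5 averaged 0.18 ± 0.20 in the null group (SD, n = 4), against -0.12 ± 0.11 for the wild type (SD, n = 3; exact permutation p = 0.114, adjusted p = 0.19). Null B, C and D were at 0.24 to 0.31, and null A, at -0.12, was within the wild-type range of -0.24 to -0.03. Spry1 minus Spry2 was between 0.07 and 0.34 in null and between -0.32 and 0.05 in wild-type libraries, so the groups did not overlap. That difference of 0.29 gave an exact permutation p = 0.0286, or 0.143 adjusted over the 5 comparisons. How many of all gene pairs would not overlap was not counted. Without wild-type B the Spry1 minus Spry2 difference was 0.18 (exact permutation p = 0.2). The other 3 gave adjusted p-values of 0.19 for Dusp4 minus Dusp6, 0.25 for Spry2 minus Spry4 and 0.657 for Spry1 minus Spry4.

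The headers end in 18, 21 or 22, a number shared between the groups whose meaning is not given in the sources used here. Within the number 18 (null A, wild-type B) the Spry4 difference was 1.04, against 0.05 within 21 (null D, wild-type C) and -0.03 within 22 (mean of null B and C, wild-type A). The Spry2 difference was -0.62, 0.07 and -0.07 in the same order. For Etv4 it was 0.08, 0.22 and 0.34, above 0 within each number. Each number holds 1 wild-type library, so these values have no test. The headers also open with a number, likewise not explained, and 4180 is shared by null D, wild-type B and wild-type C, the one such number that holds both genotypes. Within it, null D minus the mean of wild-type B and C was 0.62 for Spry4, -0.20 for Spry2, 0.29 for Dusp4 and 0.32 for Etv4, and none passed (limma adjusted p-values of 0.522, 0.671, 0.552 and 0.356 with this number as a block). Without both libraries numbered 18, the difference was -0.02 for Spry4, -0.03 for Spry2 and 0.29 for Etv4, with limma adjusted p-values of 0.95, 0.896 and 0.34.

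Levels were compared between genes as RPKM, with merged exons (GENCODE M21) as length and the reads in listed genes as library total. Dusp4 had a mean of 50.4 over the 7 libraries, Dusp6 42.6 and Etv4 37.2. Their ranges overlapped between neighbours, at 36.3 to 58.4 for Dusp4, 39.6 to 45.2 for Dusp6 and 30.3 to 47.0 for Etv4. Etv5 (mean 26.9, range 23.9 to 28.8) lay below every Etv4 value and overlapped Spry2 (mean 25.6, range 22.3 to 34.4). Spred1 (mean 20.4, range 19.8 to 21.1) lay below every Spry2 value. Spry1 (range 16.8 to 22.2) overlapped its neighbours Spred1 and Spry4 (mean 16.5, range 8.15 to 19.6). With the longest transcript as length, Etv4 (48.2) and Dusp6 (47.7) changed places. On this scale Fgf8 had a mean of 41.3 with a range of 14.3 to 57.4, a wider span than that of any target.

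Fgf8, the main FGF ligand gene of the tailbud, was set against each target across the 7 libraries. Its aligned log2 RPM was 4.18, 4.71, 4.23 and 4.65 in null libraries A to D and 4.04, 2.78 and 4.47 in wild-type libraries A to C, with wild-type B lowest. Etv4 followed it, with Pearson r = 0.75 (exact permutation p = 0.00516, adjusted p = 0.0413 over the 8 targets) and Spearman rho = 0.96 (exact permutation p = 0.00278, adjusted p = 0.0222). How many of all genes would pass the same test was not counted, so the relation is not shown to be particular to Etv4. Without wild-type B and null B, the libraries farthest from the Fgf8 median, r was 0.79, and after subtracting group means it was 0.61. Leaving out 1 library at a time, r lay between 0.71 and 0.87. The adjusted p of r was above 0.05 without null A (0.111), null B (0.0889), null D (0.156), wild-type A (0.133) or wild-type B (0.144). It was 0.0222 without null C and also without wild-type C. Without null B, Spry4 passed in its place (r = 0.97, adjusted p = 0.0444).

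The other 7 targets had no relation to Fgf8 that passed. Spry4 had r = 0.90 (exact permutation p = 0.149, adjusted p = 0.398) and rho = 0.43, and without wild-type B its r was -0.05. Dusp4 had r = 0.80 (exact permutation p = 0.106, adjusted p = 0.398) and rho = 0.54, and without wild-type B its r was 0.14. Spry2 had r = -0.82 (exact permutation p = 0.243, adjusted p = 0.486), and r = 0.52 without wild-type B. The r of these 3 genes over 7 libraries thus depends on wild-type B. Without that library, r also moved to 0.75 for Dusp6, 0.89 for Spry1 and 0.55 for Etv5, and was -0.75 for Spred1. Their adjusted exact permutation p-values were 0.194, 0.144, 0.404 and 0.194. Without both wild-type B and null B, r over the remaining 5 libraries was 0.92 for Spry4, 0.64 for Spry2, 0.59 for Dusp4, 0.74 for Dusp6, 0.83 for Spry1, 0.42 for Etv5 and -0.76 for Spred1. Over all 7 libraries Dusp6 had r = 0.23 and rho = 0.79 (exact permutation p = 0.048 for rho, adjusted p = 0.192). The remaining r values over 7 libraries were 0.02 for Spry1, -0.07 for Etv5 and -0.49 for Spred1, with adjusted p-values of 0.963, 0.963 and 0.564.

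**Figure D3:**
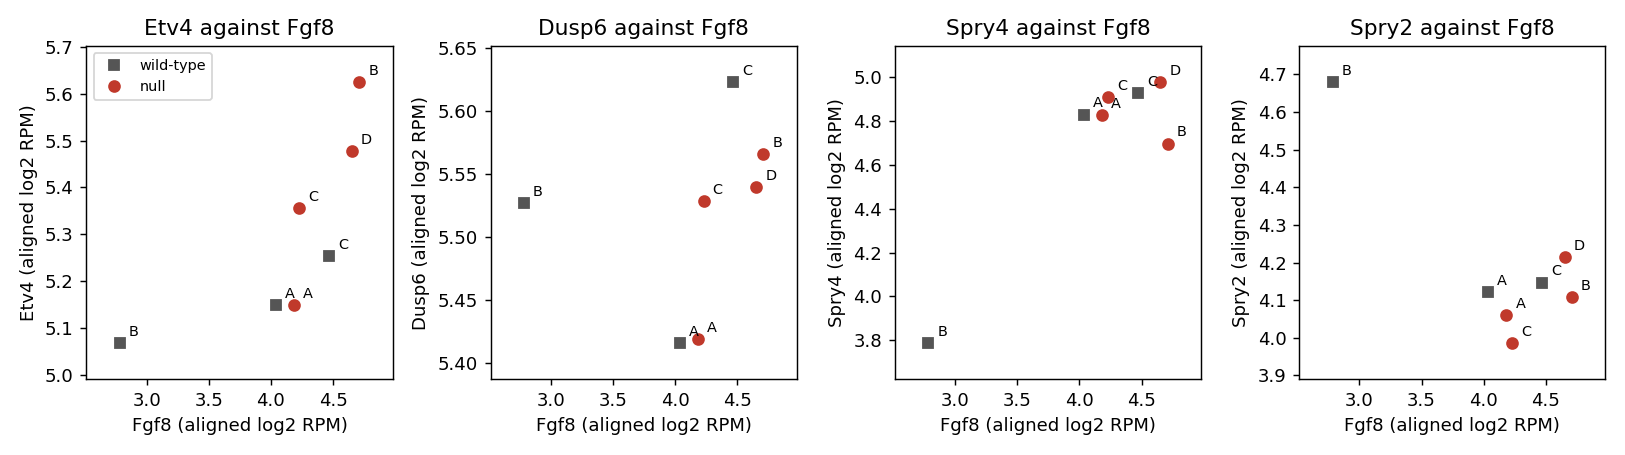
Aligned log2 RPM of Etv4, Dusp6, Spry4 and Spry2 (vertical axes, each with its own span) against that of Fgf8 (horizontal axis) in the 3 wild-type (grey squares) and 4 null (red circles) libraries, lettered. Etv4 goes up with Fgf8 (r = 0.75). In the Spry4 and Spry2 panels wild-type B lies apart from the other libraries, at an Fgf8 value of 2.78. The r of Spry4 is -0.05 without wild-type B, and 0.92 without both wild-type B and null B.

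Pairs of targets went together in some cases and apart in others. Of the 28 pairs of targets, 14 had r above 0 and 14 below, from -0.91 for Spry2 with Spry4 to 0.90 for Dusp4 with Spry4, with a median of 0.02. Dusp6 and Spred1 had r = -0.86. These correlations are a description over 7 libraries that share their scaling, and several rest on wild-type B: without it, Spry2 with Spry4 had r = 0.27 and Dusp4 with Spry4 0.71. Among 12567 other genes, those whose pattern was most like the mean of the 8 targets were Grina (r = 0.99), Dnase2a (0.99), Selenbp1 (0.99), Gm15998 (0.98) and Eml2 (0.98). After subtracting group means they were Plekhb2 (r = 1.00), Dnase2a (0.99) and Grina (0.99). These are the highest of 12567 values over 7 libraries and were not tested. The mean does not stand for each target, whose own r to it on the aligned scale ran from -0.70 for Spred1 and -0.49 for Spry2 to 0.82 for Etv4.

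Upstream of the targets, 8 of 9 listed FGF ligands were kept and 0 passed in either direction, with a median difference of 0.46 against -0.03 for all genes. The difference was above 0 for 5 of them and below 0 for 3, which were Fgf10 (-0.74, limma adjusted p = 0.44), Fgf9 (-0.32, adjusted p = 0.528) and Fgf18 (-0.31, adjusted p = 0.769), named after their values were seen. Without wild-type B they were -0.80, -0.02 and 0.17. Fgf4 had 38, 238, 107 and 175 reads in null libraries A to D, and 45, 6 and 44 in wild-type libraries A to C. It lay above the filter's deposited log2 RPM of 0 in null B, C and D only, and so was kept through the group where it was high. Its difference of 2.15 (95% interval 0.28 to 4.02, limma adjusted p = 0.352), or 1.23 without wild-type B (adjusted p = 0.71), is therefore a description only. The 5 ligands above 0 and the median of 0.46 include Fgf4. Fgf3 had a difference of 0.78 (adjusted p = 0.352; 0.44 without wild-type B), Fgf8 0.68 (adjusted p = 0.374; 0.19) and Fgf17 0.48 (adjusted p = 0.409; 0.09). The remaining ligand above 0, Fgf15, also named after its values were seen, had 0.44 (limma adjusted p = 0.403) and 0.59 without wild-type B. The list median without that library was not computed. In wild-type B the summed ligand level was 70.1 RPM, against 87.8 to 101 RPM in the other wild-type and 94.6 to 129 RPM in the null libraries. The summed level of the 8 targets was 263 RPM there, against 269 and 292 RPM in the other wild-type libraries and 280 to 298 RPM in null libraries.

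Of 24 receptor and cascade genes kept, 1 rose and 0 fell. The gene was Araf, an X-linked kinase that passes the signal from RAS to MEK, with a difference of 0.48 (SE 0.05, limma adjusted p = 0.011). As deposited, the difference was 0.68 and its adjusted p was 0.107. The median of this list was -0.07, with 19 genes below 0, as were 8045 of all 13997 genes kept. As deposited, the median over all genes was 0.16 and not -0.03, so signs this near 0 depend on the scaling. Fgfr3, a receptor gene, had 489 to 710 reads in null and 724 to 892 in wild-type libraries, a difference of -0.55 that did not pass (limma adjusted p = 0.24). The receptor gene Fgfr2 (-0.13, adjusted p = 0.352; 0.06 as deposited) and the phosphatase gene Ptpn11 (-0.10, adjusted p = 0.371; 0.10 as deposited), whose rows had the highest RPM of this list, did not pass either. The row named Fgfr2 spans chr7:130162451-133123350, with 35914 to 43506 reads, against 4592 to 6109 for Fgfr1. Whether it takes in reads of other genes was not tested, so its level is not read as that of Fgfr2 alone.

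Among the other feedback and target genes, 0 of 26 kept passed, with a median of -0.02. Il17rd, which encodes the membrane inhibitor Sef, had a difference of 0.05 (limma adjusted p = 0.791). Cic was at 6.03 to 6.12 aligned log2 RPM in null and 6.14 to 6.31 in wild-type libraries, a difference of -0.12 (limma adjusted p = 0.352; 0.07 on the deposited scale and -0.07 without wild-type B). Myc had a difference of -0.49 (limma adjusted p = 0.361), with 766 reads in null D against 1351 to 1710 elsewhere. The cell cycle gene Ccnd1 had -0.17 (limma adjusted p = 0.412; 0.02 as deposited and -0.04 without wild-type B).

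Tailbud and presomitic genes also had 0 of 24 passing, with a median of 0.30 against -0.03 for all genes. This list shares Fgf4, Fgf8 and Fgf17 with the ligands, so the 2 medians are not separate. Fgf4 was kept through the null group, where it was high. Cdx4, an X-linked homeobox gene, had a difference of 0.44 (limma adjusted p = 0.212) and Cdx1 -0.43 (adjusted p = 0.352). Greb1 (0.21, adjusted p = 0.367; 0.08 without wild-type B) and Wnt5a (0.20, adjusted p = 0.393; 0.07) had the highest RPM. T had a difference of 0.57 (adjusted p = 0.352; 0.26 without wild-type B) and Cyp26a1 1.33 (adjusted p = 0.389; 0.22 without wild-type B). Tbx6 had 0.10 (adjusted p = 0.597) and Msgn1 0.38 (adjusted p = 0.37).

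Wild-type B, in which Spry4 was low and Spry2 high, also differed in its cell type markers. In it, 8 of 8 kept neural tube markers lay above wild-type A and C, and their list (10 genes, of which 0 were at 0 in every library) summed to 146 RPM, against 63.4 to 74.4 RPM in the other wild-type and 45.8 to 98.0 RPM in the null libraries. Of 24 kept tailbud and presomitic genes, 16 lay below wild-type A and C, and the list summed to 729 RPM, against 892 to 1000 RPM in the other wild-type and 920 to 1083 RPM in the null libraries. Among all 13997 genes 6471 lay above and 4516 below. The part of tissue makeup in the Spry2 and Spry4 values was not tested.

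**Figure D4:**
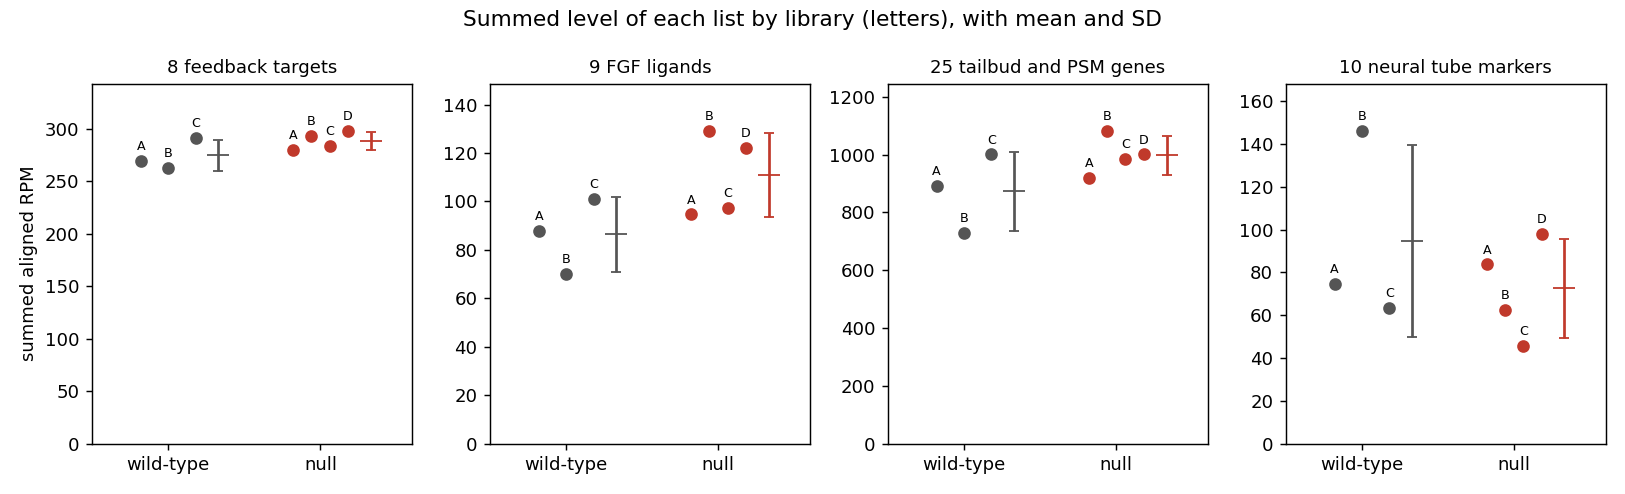
Summed aligned RPM (vertical axes from 0, each with its own span) of the 8 targets, 9 FGF ligands, 25 tailbud and presomitic genes and 10 neural tube markers in each library, lettered, with the group mean and SD. Wild-type B has the lowest sum of targets (263), ligands (70.1) and tailbud genes (729) and the highest of neural tube markers (146). Fgf4, Fgf8 and Fgf17 are in both the ligand and the tailbud list.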

How the data were processed

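RNA-seq was analysed from 3 wild-type and 4 null libraries. The build mm10 and the tools TopHat2 2.0.12, bcl2fastq and edgeR are listed, without roles, per the submitters' processing notes. How reads were counted, on which strand and on which annotation is not given in the sources used here. Values were deposited by the authors as log2 RPM, with 1 column for each alignment file per the file headers. Columns name a genotype only. Dividing low values (below 1000 reads) by the step of 1 read gave whole numbers within 0.01 in 100% of cases. Unread genes sit at 0.9 read. No other row of the table overlapped any of the 8 genes.

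Kept were genes above a deposited log2 RPM of 0 in 3 or more libraries, and autosomal medians were aligned. The null and wild-type groups were compared in limma 3.58.1 (R 4.3.3) with a trended prior, and p-values were adjusted over all genes kept (Benjamini-Hochberg, threshold 0.05). The fit was checked on simulated data. Fgf8 relations used two-sided exact permutation (scipy 1.17.1). Gene positions overlapped for 99.6% of names shared with GENCODE M21. Tables and plots were made with pandas 2.3.3, matplotlib 3.10.9 and numpy 2.4.6 under Python 3.11.15.

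The members and lists were chosen with earlier results of these data known. Named beside the 8 were Smchd1, Fgf8, Fgf4, T, Cyp26a1, Tbx6 and Msgn1, and from each list the passing genes (up to 5), the 2 with the smallest p and the 2 with the highest level. Genes most like the members were the 5 (and 3 after subtracting group means) with the highest r to the members' mean, at a mean log2 value of at least 1. Tests for counts in edgeR and DESeq2 were not run, since the file holds log2 values, and voom in limma was fitted to the recovered reads instead, where it called 12 genes. Counting intervals cover counting error only, and 3 reads, the limit that a count of 0 allows, correspond to 0.044 to 0.0507 RPM. Alternatives were other scalings, filters, priors, weights, a pseudocount of 1 RPM, a block on the last or the first header number and leaving out each library. Voom, the block on the first number, leaving out both libraries numbered 18, and the differences within a library were chosen after seeing the data.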

Additional observations from a re-analysis of the deposited data

Results flagged for a closer look

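In Spred1, null A lay at 5.62 aligned log2 RPM and null B, C and D at 5.54 to 5.55. The gap took up 0.912 of the range of the 4 null libraries, above Dixon's 95% limit for a group of that size. The whole range was 0.08, and wild-type A, also at 5.62, lay as high. Of the 9 genes looked at in this way (the 8 targets and Fgf8), 1 stood out in this way, and chance alone gives about 1 in 20 groups.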

How the results depend on the processing

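None of the 8 targets passed under any of 20 alternatives. Dusp4 (0.10 to 0.43), Etv4 (0.17 to 0.44) and Spry2 (-0.32 to -0.03) kept their direction under all of them. The targets near 0 did not. Under the deposited scale Dusp6 was 0.18, Spred1 0.17 and Etv5 0.14. Under cyclic loess they were 0.053, 0.041 and 0.0032, and under quantile normalization Dusp6 was 0.049 and Spred1 0.036. The stricter filter (log2 above 1 in every library) gave 0.016 and 0.0027 for these 2, and voom 0.036 and 0.018. Dusp6 was 0.024 without null A, 0.042 without wild-type C and 0.027 without both libraries numbered 18. Etv5 was 0.0042 without null C, and Spry1 -0.0041 without wild-type A. Spry4 was -0.025 without wild-type B and -0.016 without both libraries numbered 18. Over the 7 fits that leave out 1 library, the ranges were -0.062 to 0.042 for Dusp6, -0.0041 to 0.14 for Spry1, -0.025 to 0.54 for Spry4 and -0.096 to 0.0042 for Etv5. The cause was not tested, except that leaving out a library removes its value.

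The median of the 8 targets was 0.22 as deposited and lay between -0.012 and 0.071 when 1 library was left out. The count of genes higher in null tissue was 7, but 18 with cyclic loess, 15 with quantile normalization, 17 with the stricter filter, 12 with array weights and 11 with voom, and 3 to 9 when 1 library was left out (3 without null B, wild-type A or wild-type C, 4 without null D). The count of genes lower was 1 under each of these alternatives.

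The relation to Fgf8 was counted for 1 target, and for 0 to 1 when 1 library was left out. As deposited, r was 0.49 for Spred1, 0.63 for Etv5, 0.47 for Spry1 and -0.45 for Spry2. It was 0.72 for Dusp6 there (exact permutation p = 0.0127, adjusted p = 0.0508), 0.85 for Dusp4, 0.92 for Spry4 and 0.81 for Etv4. On the aligned scale, r for Spry1 was -0.27 without null B, -0.11 without null D and -0.018 without wild-type A. Without wild-type B it was 0.52 for Spry2, -0.053 for Spry4 and 0.55 for Etv5. The ranges when 1 library was left out were -0.27 to 0.89 for Spry1, -0.89 to 0.52 for Spry2, -0.053 to 0.97 for Spry4 and -0.23 to 0.55 for Etv5. Spry1 minus Spry4 went from -0.499 to 0.16, above 0 without wild-type B. With the longest transcript as length, 6 of 8 targets kept their place in the order of levels.

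The last header number was fitted as a block. Correlations of deviations from group means between libraries of the same number were 0.36 for 18, 0.20 and 0.41 for 22 and -0.05 for 21. Not every pair was above 0.1 and the sources do not explain the number, so it was not taken as a pairing. With the replicate block 7 genes were higher and 1 lower, 0 of the 8 targets passed, their median was 0.04 and Etv4 was 0.23 (limma adjusted p = 0.208). With the first header number as the replicate block, limma gave 0 genes higher and 0 lower (864 and 1279 at an unadjusted p under 0.05), and Smchd1 itself did not pass (adjusted p = 0.32), since only 3 libraries then bear on genotype. The planned edgeR and DESeq2 fits were not run. The numbers in the sample titles are not in the headers and could not serve as a block. At 790 to 3684 reads per target, counting error gives an SD of 0.02 to 0.05 log2. Taken at its own reads, each target has a counting SD below its pooled spread between libraries. For Spred1 the 2 lie close, at 0.025 to 0.028 against 0.037.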

Other observations

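Immediate early genes, many of which also answer to ERK, were measured beside the feedback targets. Of 10 listed, 8 were kept and 0 passed, with a median difference of -0.04. Their summed level was 51.4 to 75.1 RPM in null and 54.8 to 74.5 RPM in wild-type libraries, highest in null D and wild-type C.

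In wild-type B, the markers of several other tissues were low together. All 10 endothelial, all 10 blood and all 10 surface ectoderm markers lay below wild-type A and C there. The median of that library minus the mean of wild-type A and C was -0.79, -1.36 and -0.54 for these lists. Of 5 kept somite derivative markers, 3 lay above and 2 below, with a median of 1.14. The neural tube list had a median of 1.12. Of the 8 targets, 2 lay above wild-type A and C in that library, Spry2 (0.54 from their mean) and Spry1 (0.22). Another 3 lay below them, Spry4 (-1.09), Dusp4 (-0.40) and Etv4 (-0.13). Among all 13997 genes kept, 6471 lay above wild-type A and C there and 4516 below. Whether the targets and these lists are linked was not tested.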
